A study of Homo sapiens with 4 samples.

Results

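Glutathione transferases were compared between Huh7 cells carrying a short hairpin RNA (shRNA) against ACOT12 and Huh7 cells carrying a scramble shRNA. The 10 genes followed came from 6 classes of the family: GSTA1, GSTA2, GSTA3 and GSTA4 (alpha), GSTM3 and GSTM4 (mu), GSTP1 (pi), GSTO1 (omega), GSTK1 (kappa) and MGST1 (microsomal). They were found by gene symbol and made up 10 of the 19090 genes on the arrays, read by 17 of 25893 named probes. The alpha members were picked by their lower values in shACOT12 cells in this same comparison, although GSTA4 was not lower. The differences of the alpha members are therefore a description and carry no test. The question put to the other 6 members was whether their values followed.

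Huh7 is an established human hepatocellular carcinoma line. ACOT12 encodes a cytosolic thioesterase that hydrolyses acetyl-CoA. Each group was measured on 2 single-colour arrays, with the scramble cells as control, and both groups carried an integrated shRNA and had passed puromycin selection. The sources used here give neither the number of shRNA sequences or clones nor whether replicate samples were cultured separately. All p-values therefore measure the spread between these arrays, which may be technical, and the smallest two-sided p of an exact permutation test of 2 against 2 arrays is 0.333.

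Glutathione transferases join the thiol of glutathione to electrophilic compounds such as drugs, carcinogens and products of lipid peroxidation, and the conjugates are then exported and processed to mercapturates. The cytosolic classes act as dimers and share a fold, the kappa class lies in mitochondria and peroxisomes, and the microsomal enzymes are unrelated membrane proteins of the MAPEG family. In human liver the alpha class is the most prominent, and GSTP1 is known as a form that is scarce in normal hepatocytes and common in tumour cell lines. Several of these genes are known targets of the antioxidant transcription factor NRF2, and the alpha genes are also known to respond to liver transcription factors of the HNF1 and C/EBP families.

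Array medians were 327 and 451 in shACOT12 cells and 377 and 395 in scramble cells, on the intensity scale of the deposited values. Arrays of the same group were not closer to each other (Pearson r across genes 0.979 for shACOT12 and 0.986 for scramble) than arrays of different groups (0.983 to 0.988), and genes are not independent replicates. All 9 measured hepatocyte or hepatoma markers were at or above the median gene, as were 4 of 13 markers of other cell types (CD14, COL1A1, KRT19 and SOX9). ACOT12 itself was read by 1 dim probe at log2 values of 7.58 and 7.37 in shACOT12 cells and 8.28 and 7.47 in scramble cells. Its values overlapped, with a log2 fold change of -0.40 (95% confidence interval -1.24 to 0.44, limma adjusted p = 1), so a lower ACOT12 mRNA was not detectable and "shACOT12" below is the name on the label. All log2 fold changes are shACOT12 minus scramble on quantile-normalized log2 intensities.

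Within the alpha class, 3 of the 4 genes had values in shACOT12 cells that were less than 0.5 of those in scramble cells, and GSTA4 did not. GSTA1 encodes the main alpha enzyme of human liver, which also reduces lipid hydroperoxides. Its intensity was 4865 and 5330 in shACOT12 cells, against 10901 and 11769 in scramble cells. Both shACOT12 arrays lay well below both scramble arrays, and the arrays of each group were close to each other. On the normalized scale GSTA1 averaged 12.33 ± 0.06 in shACOT12 cells and 13.47 ± 0.08 in scramble cells (log2, mean ± SD, n = 2 each), a log2 fold change of -1.14.

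GSTA2 encodes a close paralog of GSTA1 with a similar range of substrates and was read by 2 probes. The brighter probe gave 3650 and 4042 in shACOT12 cells, against 9060 and 8385 in scramble cells. The dimmer probe gave 1869 and 1710 in shACOT12 cells, against 4591 and 5824 in scramble cells. The groups were separate on both probes, with log2 fold changes of -1.18 on the brighter and -1.51 on the dimmer probe. By the brighter probe GSTA2 averaged 11.92 ± 0.06 in shACOT12 cells and 13.09 ± 0.09 in scramble cells (log2, n = 2 each).

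GSTA3 encodes an alpha enzyme best known in humans for the double-bond isomerization of steroid precursors. It had 3 probes, of which only 1 was bright. That probe gave 1727 and 1428 in shACOT12 cells, against 4479 and 3240 in scramble cells, with no overlap. It averaged 10.62 ± 0.33 in shACOT12 cells and 11.88 ± 0.36 in scramble cells (log2, n = 2 each), a log2 fold change of -1.26 with more spread than GSTA1 or GSTA2. The other 2 probes of GSTA3 read 77 and 63 in shACOT12 cells against 76 and 95 in scramble cells, and 34 and 89 in shACOT12 cells against 68 and 63 in scramble cells. Their groups overlapped, their log2 fold changes were -0.36 and -0.26, and at most 25.5% of the probes of an array were as dim or dimmer. The mean of the 3 probes gave -0.63. The probe sequences were not analysed here, so whether the bright GSTA3 probe or the GSTA1 and GSTA2 probes also read RNA of a near-identical paralog was not tested.

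GSTA4 encodes the alpha enzyme specialised for 4-hydroxynonenal, an aldehyde from lipid peroxidation. Its intensity was 9442 and 9674 in shACOT12 cells, against 6904 and 9774 in scramble cells. The groups overlapped, and the low value was scramble replicate 1. GSTA4 averaged 13.22 ± 0.03 in shACOT12 cells and 13.01 ± 0.35 in scramble cells (log2, n = 2 each), a log2 fold change of 0.22. GSTA5, the remaining coding alpha gene, was no member and read 729 and 1192 in shACOT12 cells, against 862 and 1513 in scramble cells. Its groups overlapped too (log2 fold change -0.26, limma adjusted p = 1). In RefSeq the 5 coding genes follow each other on chromosome 6 in the order GSTA2, GSTA1, GSTA5, GSTA3, GSTA4, with no other coding gene between them. GSTA5, whose groups overlapped, thus lies between GSTA1 and GSTA3, whose groups did not.

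**Figure D1:**
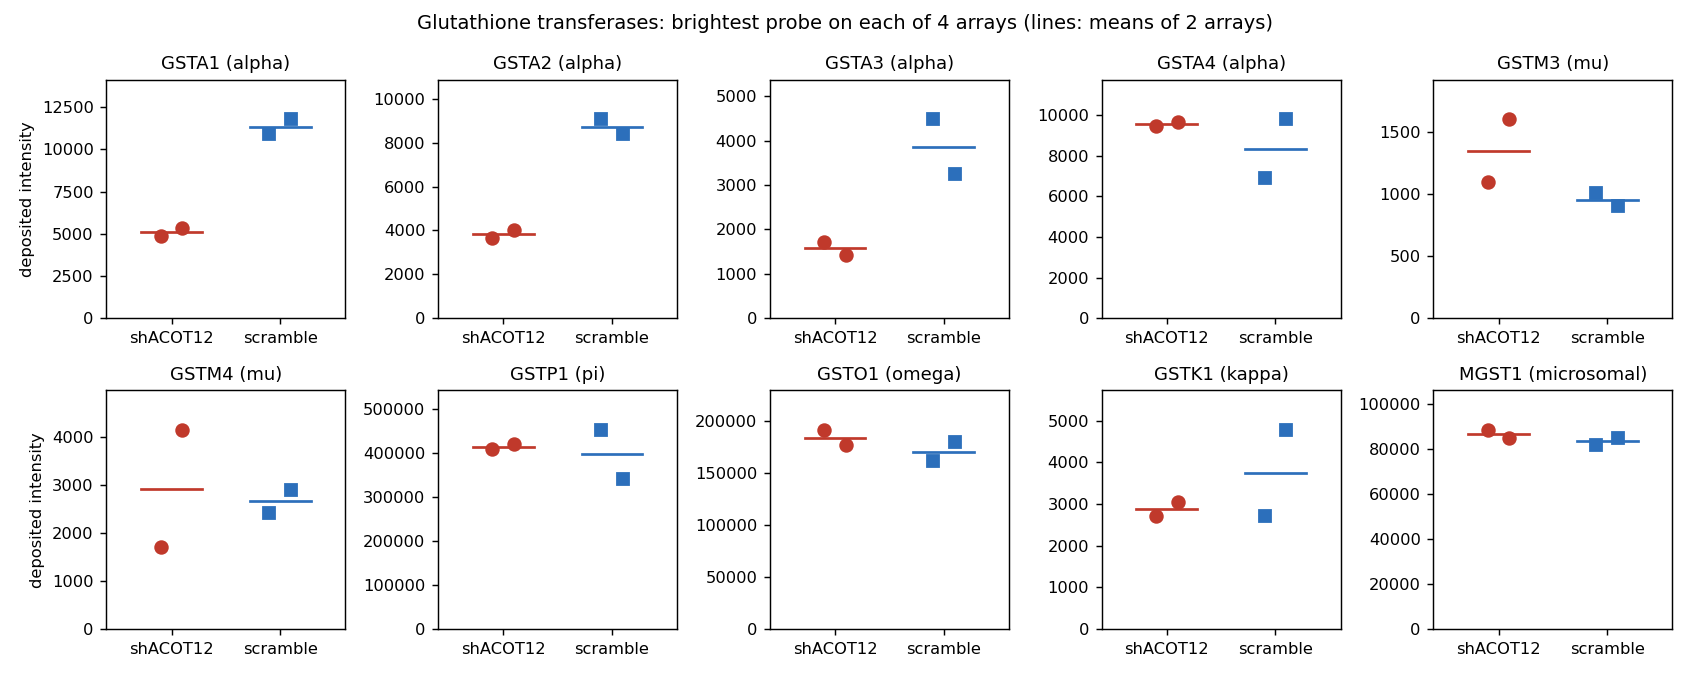
Deposited intensity, on a linear axis from 0 that differs between panels, of the brightest probe of each member on the 2 shACOT12 arrays (circles) and the 2 scramble arrays (squares), with the group mean as a line. GSTA1, GSTA2 and GSTA3 are separate with shACOT12 lower, GSTM3 is separate with shACOT12 higher, and the other 6 members overlap.

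The lower values of GSTA1, GSTA2 and GSTA3 chose them, and nothing is read from their share. For scale, 0.828% of all genes had a log2 fold change of -1 or lower, and these 3 genes held ranks 106, 98 and 87 from the lowest fold change of 19090. Both shACOT12 arrays were below both scramble arrays for 10.0% of all genes and above both for 11.5%. Limma, the test across all genes, put 0.00524% of genes past an adjusted p of 0.05. That was 1 gene, and it was no glutathione transferase. Leaving out 1 array in turn gave -1.20 to -1.08 for GSTA1, -1.24 to -1.12 for GSTA2, -1.51 to -1.002 for GSTA3 and -0.03 to 0.47 for GSTA4.

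Some hepatocyte and hepatoma markers also had separate groups, and their part in the low alpha values was not tested. Of the 9 measured, 3 were separate below (AFP, TF and APOB) and 2 separate above (ALB and TTR). The shares over all genes were 10.0% below and 11.5% above. Limma put 0 past the adjusted threshold and 1, AFP, under an unadjusted p of 0.05, as 1.76% of all genes were. AFP, the fetal plasma protein alpha-fetoprotein, averaged 17.13 ± 0.15 in shACOT12 cells and 17.91 ± 0.03 in scramble cells (log2, n = 2 each), a log2 fold change of -0.78 (unadjusted p = 0.0267 and adjusted p = 1 in limma). ALB, serum albumin, averaged 17.69 ± 0.07 in shACOT12 cells and 17.19 ± 0.0074 in scramble cells (log2, n = 2 each), a log2 fold change of 0.49 (limma adjusted p = 1). The intensities of the 9 markers summed to 919070 and 864297 in shACOT12 cells, against 1088598 and 849870 in scramble cells, so the groups overlapped. Of the 13 markers of other cells, 1 was separate above and 3 below (PECAM1, SOX9 and PDGFRB), beside 11.5% and 10.0% of all genes. Their intensities summed to 30658 and 32033 in shACOT12 cells, against 36332 and 42558 in scramble cells. That sum was lower on both shACOT12 arrays. The brightest markers, CD14 and SOX9 (mean log2 13.87 and 13.69), made up most of it. Of the 13 markers, 9 lay below the median gene. Whether the sum reflects other cells was not tested, and its part in the alpha values was not tested either.

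The promoter windows of the alpha members are shown because 3 of these 4 genes had low values and the fourth did not, with that of GSTP1 as an example from another class. The window of GSTA5, which lies between GSTA1 and GSTA3 and is no member, is not shown. Each window runs from 250 bases before to 50 bases after the RefSeq start of the gene (GRCh38.p14) and is written 5′ to 3′ in the direction of the gene. Capitals mark matches, on either strand, to any of 4 motifs: the core of the antioxidant response element TGACNNNGC, which NRF2 binds with a small MAF protein; the AP-1 motif TGANTCA, which can overlap it; the hexamer GTTAAT, one arm of the palindrome bound by HNF1 factors; and the TATA element TATAAA.
GSTA1, chr6:52803767-52804066, minus strand: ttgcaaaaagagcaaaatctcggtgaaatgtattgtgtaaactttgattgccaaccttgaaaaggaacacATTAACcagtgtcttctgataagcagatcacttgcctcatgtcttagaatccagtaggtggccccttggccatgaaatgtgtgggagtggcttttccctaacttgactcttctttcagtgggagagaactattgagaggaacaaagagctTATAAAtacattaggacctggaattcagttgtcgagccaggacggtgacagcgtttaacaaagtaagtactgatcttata
GSTA2, chr6:52763426-52763725, minus strand: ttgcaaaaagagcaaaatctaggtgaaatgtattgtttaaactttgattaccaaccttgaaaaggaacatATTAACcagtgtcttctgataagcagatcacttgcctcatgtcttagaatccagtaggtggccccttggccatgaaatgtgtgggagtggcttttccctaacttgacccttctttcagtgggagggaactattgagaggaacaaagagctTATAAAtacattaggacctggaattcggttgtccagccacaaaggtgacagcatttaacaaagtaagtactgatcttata
GSTA3, chr6:52909649-52909948, minus strand: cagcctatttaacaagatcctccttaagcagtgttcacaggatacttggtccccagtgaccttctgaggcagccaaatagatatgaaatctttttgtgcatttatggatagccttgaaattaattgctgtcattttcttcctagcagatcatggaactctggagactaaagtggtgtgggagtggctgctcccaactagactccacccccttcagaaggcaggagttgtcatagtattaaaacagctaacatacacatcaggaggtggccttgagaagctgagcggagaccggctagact
GSTA4, chr6:52995235-52995534, minus strand: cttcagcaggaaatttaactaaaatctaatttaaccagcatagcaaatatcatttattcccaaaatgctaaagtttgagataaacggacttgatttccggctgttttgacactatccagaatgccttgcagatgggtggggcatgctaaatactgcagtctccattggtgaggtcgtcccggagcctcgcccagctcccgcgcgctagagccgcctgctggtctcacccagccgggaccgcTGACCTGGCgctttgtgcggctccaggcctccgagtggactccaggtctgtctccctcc
GSTP1, chr11:67583562-67583861, plus strand: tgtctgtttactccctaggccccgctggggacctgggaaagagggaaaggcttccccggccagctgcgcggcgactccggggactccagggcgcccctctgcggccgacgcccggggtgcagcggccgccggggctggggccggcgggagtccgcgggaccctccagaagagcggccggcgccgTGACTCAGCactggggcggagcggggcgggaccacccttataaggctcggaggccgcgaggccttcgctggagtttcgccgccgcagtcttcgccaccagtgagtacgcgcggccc

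Aligned without gaps, the windows of GSTA1 and GSTA2 differed at 12 of 300 positions (96.0% identical). GSTA1 and GSTA3 were identical at 28.7% of positions and GSTA1 and GSTA4 at 23.7%. Against the windows of other classes GSTA1 gave 23.7% to 28.7%. Identity without gaps is lost where bases are shifted. Aligned with gaps, GSTA1 was 50.8% identical to GSTA3 and 45.3% to GSTA4. With gaps, other classes gave 42.9% (GSTP1) to 51.7% (MGST1, first start), and only MGST1 was above GSTA3. The GSTA1 and GSTA2 windows each held an HNF1 arm at -180 to -175 and a TATA element at -30 to -25 from the start, counted with no position 0. The GSTA3 window held none of the 4 motifs. The GSTA4 window held an antioxidant response element core at -9 to -1, and that of GSTP1 held one at -66 to -58, overlapped by an AP-1 motif at -66 to -60. GSTO1 had 2 such cores in its window, at -226 to -218 and at -161 to -153, and a TATA element on the opposite strand, and GSTM3, GSTM4 and GSTK1 had none of the 4 motifs. MGST1 has 3 annotated starts, whose windows held an antioxidant core and a TATA element (the first) or HNF1 arms (the second and the third, which overlap). Over all 35116 RefSeq promoter windows of this length, 13.3% held the antioxidant core, 7.71% the AP-1 motif, 6.88% the HNF1 arm and 11.5% the TATA element. These are matches of letters and say nothing of binding in these cells.

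**Figure D2:**
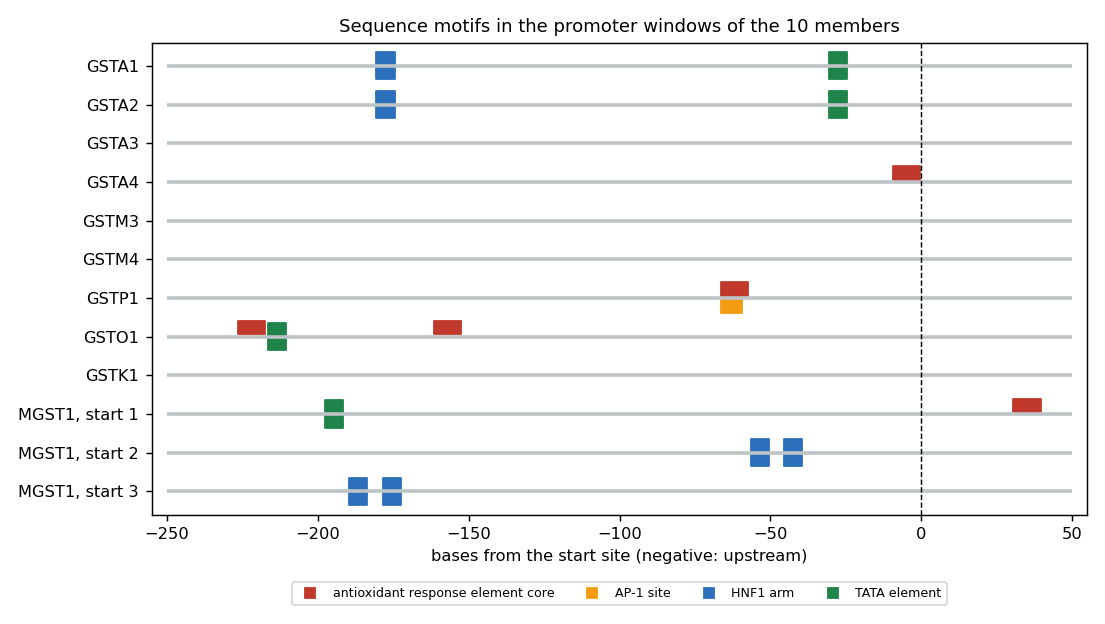
Positions of the 4 motifs, on either strand, in the promoter windows of the 10 members, in bases from the RefSeq start (dashed line); MGST1 has 3 starts. GSTA1 and GSTA2 carry an HNF1 arm and a TATA element at the same positions, and GSTA3 carries no match.

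None of the 6 members outside the alpha class passed limma's adjusted threshold in either direction, and none had an unadjusted p under 0.05, as 1.76% of all genes did. Their median log2 fold change was 0.03, beside 0.0078 for all genes, and it ranged from -0.05 to 0.12 when 1 array was left out. The groups did not overlap for 1 of the 6, GSTM3, which lay above, as 11.5% of all genes did, and 0 of the 6 lay below, against 10.0% of all genes. The adjusted threshold cannot decide whether the 6 followed the low alpha genes. Of all genes, 158 had a log2 fold change of -1 or lower, and only 1 gene passed that threshold.

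The mu class was represented by GSTM3, a form known from testis and brain, and GSTM4. GSTM3 read 1095 and 1602 in shACOT12 cells, against 1006 and 902 in scramble cells. Both shACOT12 arrays were above both scramble arrays, but the closest pair, shACOT12 replicate 1 and scramble replicate 1, differed little. GSTM3 averaged 10.39 ± 0.25 in shACOT12 cells and 9.89 ± 0.17 in scramble cells (log2, n = 2 each), with a log2 fold change of 0.50 (95% confidence interval -0.19 to 1.204, limma adjusted p = 1) and a range of 0.33 to 0.68 without 1 array. Its second probe, read by at most 114 units on any array, gave 0.03.

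GSTM4 read 1710 and 4142 in shACOT12 cells, against 2412 and 2905 in scramble cells. The 2 shACOT12 arrays were the lowest and the highest of the 4, so the groups overlapped. Its log2 fold change was 0.05 (95% confidence interval -0.94 to 1.05, limma adjusted p = 1), and without 1 array it ranged from -0.52 to 0.63. GSTM2, the neighbour of GSTM4 on chromosome 1 and no member, also had its lowest and its highest value on the shACOT12 arrays, with 2647 and 5283 in shACOT12 cells, against 3490 and 3550 in scramble cells. The mu genes are close paralogs, and whether their probes tell them apart was not tested.

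GSTP1, the pi enzyme, had 2 probes. The brighter read 408043 and 421002 in shACOT12 cells, against 451859 and 341875 in scramble cells, so both shACOT12 arrays fell between the scramble arrays. GSTP1 averaged 18.64 ± 0.14 in shACOT12 cells and 18.64 ± 0.22 in scramble cells (log2, n = 2 each), with a 95% confidence interval of -0.69 to 0.69 for the log2 fold change (limma adjusted p = 1). At least 99.9% of the probes of each array were at or below it, near the top of the scale, where a signal may no longer follow the amount of RNA; saturation flags were not used here. The dimmer probe read 11968 and 11275 in shACOT12 cells, against 16054 and 11873 in scramble cells. After normalization its shACOT12 values lay below both scramble values by a narrow margin, with a log2 fold change of -0.25.

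GSTO1, the omega enzyme, reduces dehydroascorbate and takes part in removing glutathione from proteins. It read 191598 and 177043 in shACOT12 cells, against 162017 and 179732 in scramble cells. The groups overlapped, and the log2 fold change was 0.05 (95% confidence interval -0.61 to 0.71). MGST1, a membrane enzyme of the endoplasmic reticulum and outer mitochondrial membrane with transferase and peroxidase activity, read 88309 and 84667 in shACOT12 cells, against 81605 and 85043 in scramble cells. Its groups overlapped, and the log2 fold change was 0.02 (95% confidence interval -0.63 to 0.67). Both had a limma adjusted p of 1. At least 99.3% of the probes of each array were at or below GSTO1, and at least 98.1% at or below MGST1. The limit given for GSTP1 near the top of the scale may therefore apply to both.

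GSTK1, the kappa enzyme of mitochondria and peroxisomes, read 2723 and 3047 in shACOT12 cells, against 2722 and 4774 in scramble cells. Scramble replicate 2 stood apart as the high value, and the other 3 arrays were close together. The log2 fold change was -0.30 (95% confidence interval -1.12 to 0.52, limma adjusted p = 1), and it was 0.09 without scramble replicate 2. The second probe of GSTK1 gave -0.11, with 1227 and 1526 in shACOT12 cells and 1546 and 1443 in scramble cells.

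**Figure D3:**
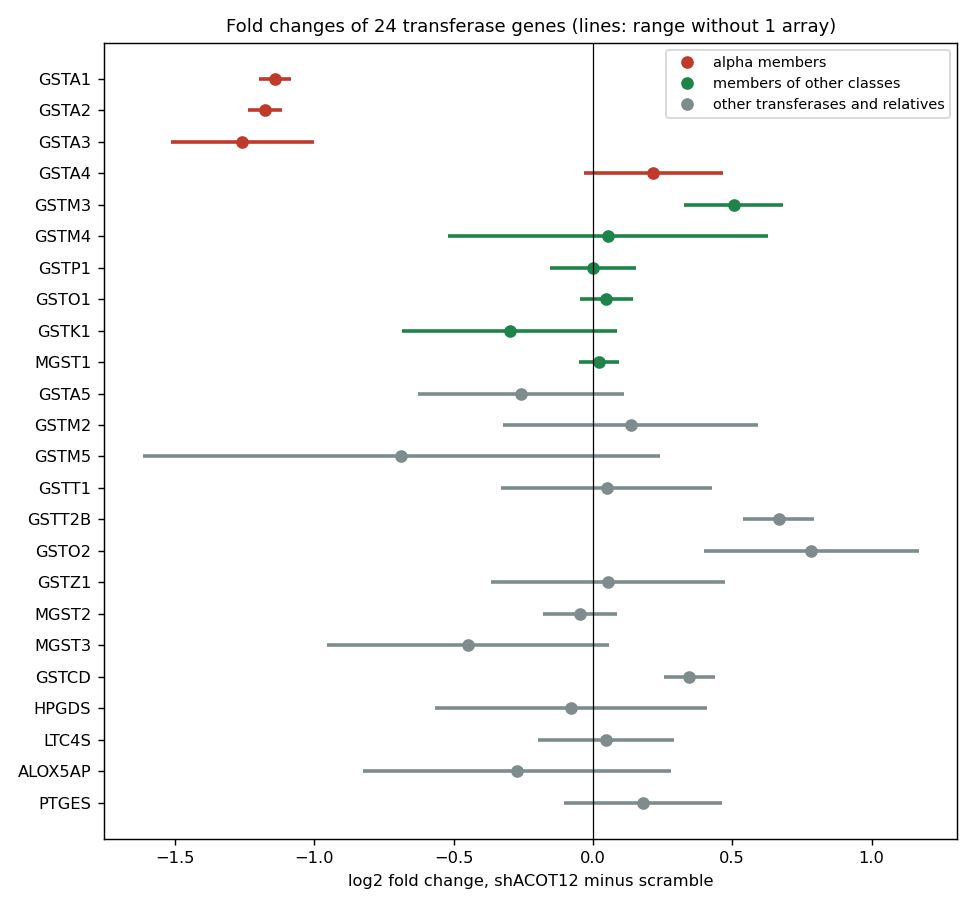
Log2 fold change, shACOT12 minus scramble, of the 10 members and 14 further transferases and relatives (points), with the range of values when 1 array in turn was left out (lines). GSTA1, GSTA2 and GSTA3, chosen for their low values, stay at or below -1.002. The ranges of GSTA4, GSTM4, GSTP1, GSTO1, GSTK1 and MGST1 cross 0.

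Of 17 further transferase genes and MAPEG relatives listed, 14 were measured, and GSTM1, GSTT2 and GSTT4 were not analysed here. Limma's adjusted threshold was passed by 0 of the 14 in either direction, 1 had an unadjusted p under 0.05, and their median log2 fold change was 0.05, ranging from -0.021 (without shACOT12 replicate 2) to 0.30 (without shACOT12 replicate 1). The groups did not overlap for 3, which all lay above in shACOT12 cells, against 11.5% of all genes on that side, and for 0 on the lower side. GSTO2, the second omega enzyme and the neighbour of GSTO1 on chromosome 10, read 1192 and 2277 in shACOT12 cells, against 852 and 1129 in scramble cells (log2 fold change 0.78, 95% confidence interval -0.06 to 1.63). The closest pair was shACOT12 replicate 1 with scramble replicate 2, and the log2 fold change was 0.40 without shACOT12 replicate 2 and 1.17 without shACOT12 replicate 1. GSTT2B, a theta enzyme, read 115 and 191 in shACOT12 cells, against 104 and 84 in scramble cells, and its second probe went the other way (log2 fold changes 0.67 and -0.27). It was the gene with the unadjusted p of 0.0498, and at most 33.9% of the probes of an array were as dim or dimmer. GSTCD, a protein with a C-terminal transferase-like domain, read 24230 and 22385 in shACOT12 cells, against 19268 and 16649 in scramble cells (log2 fold change 0.35). Its dimmer probe gave 0.10 with overlapping groups.

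The remaining genes of that list overlapped between the groups. MGST3, a microsomal glutathione peroxidase, read 21005 and 24549 in shACOT12 cells, against 21292 and 40948 in scramble cells, so that scramble replicate 2 was again the high array (log2 fold change -0.45). MGST2, which can make leukotriene C4, stood at -0.05 and GSTZ1, the maleylacetoacetate isomerase of tyrosine breakdown, at 0.05. GSTM5 stood at -0.69, with 386 and 157 in shACOT12 cells and 370 and 394 in scramble cells, so that 1 low array set the value. The dim genes GSTT1, LTC4S (leukotriene C4 synthase), HPGDS (a prostaglandin D synthase of the sigma class), ALOX5AP (the 5-lipoxygenase activating protein) and PTGES (a prostaglandin E synthase) had log2 fold changes of 0.05, 0.05, -0.08, -0.27 and 0.18, and GSTM2 stood at 0.14. Each of these genes had a limma adjusted p of 1. The dim further probes of GSTM2 gave 0.42, with separate groups, and -0.12.

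**Figure D4:**
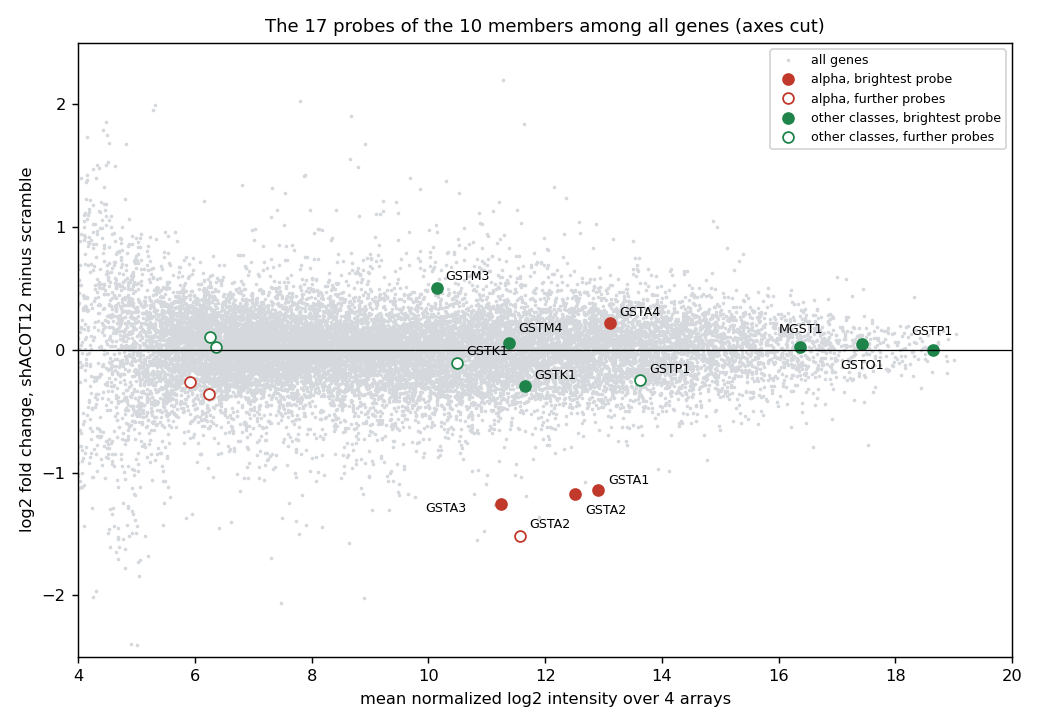
Log2 fold change against the mean normalized log2 intensity of the 17 probes of the members, filled for the brightest probe of a gene and open for its further probes, over all genes in grey; the axes leave out the most extreme genes. The bright probes of GSTA1, GSTA2 and GSTA3 lie below -1, and the dim GSTA3 probes lie near -0.3.

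Genes that make, recycle and export glutathione, and regulators of transferase genes, were set beside the transferases as 4 lists. In all 4 lists limma put 0 genes past the adjusted threshold in either direction, and 0 had an unadjusted p under 0.05. In glutathione synthesis and breakdown (14 of 15 measured), the median log2 fold change was 0.12, with 4 genes separate above and 1 separate below, beside 11.5% and 10.0% of all genes. The median ranged from -0.055 to 0.15 when 1 array was left out and was below 0 without shACOT12 replicate 2. CHAC2, a cytosolic enzyme that degrades glutathione, stood at 0.71 and SLC3A2, the heavy chain of the cystine transporter, at 0.19. CHAC2 ranged from 0.26 (without scramble replicate 2) to 1.17 (without scramble replicate 1), and SLC3A2 from 0.033 (without shACOT12 replicate 2) to 0.35 (without shACOT12 replicate 1). GCLM, the modifier subunit of the rate-limiting ligase and a known NRF2 target, stood at -0.36 and was the gene separate below, and GGT7, of the gamma-glutamyltransferase family, stood at -0.38. Without 1 array GCLM ranged from -0.51 to -0.20, with the extremes on leaving out shACOT12 replicates 1 and 2, and GGT7 from -0.66 to -0.094, on leaving out scramble replicates 1 and 2.

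In glutathione recycling and peroxidases (12 of 13 measured), the median was -0.17, with 1 gene separate above and 4 below, beside 11.5% and 10.0% of all genes. PGD, an NADPH-producing enzyme of the pentose phosphate pathway, stood at -0.51 and GPX4, which reduces phospholipid hydroperoxides, at -0.47, both separate below. GPX4 was -0.13 without scramble replicate 2 and -0.81 without scramble replicate 1. GPX3, the secreted plasma peroxidase, stood at 0.22 and GLRX2, a mitochondrial glutaredoxin, at 0.20. GPX3 was 0.059 without shACOT12 replicate 2, 0.061 without scramble replicate 2 and 0.37 without replicate 1 of either group. The median of this list was -0.0014 without shACOT12 replicate 1, -0.24 without shACOT12 replicate 2, -0.48 without scramble replicate 1 and -0.05 without scramble replicate 2.

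In conjugate export and mercapturate formation (9 of 10 measured), the median was 0.03 and no gene was separate in either direction. The median was -0.063 without shACOT12 replicate 1, 0.099 without shACOT12 replicate 2, 0.30 without scramble replicate 1 and -0.066 without scramble replicate 2. ACY3, an aminoacylase that deacetylates mercapturates, stood at 0.27 and the exporter ABCG2 at 0.18, with ABCG2 ranging from 0.055 (without scramble replicate 2) to 0.30 (without scramble replicate 1). KYAT1, a cysteine conjugate beta-lyase, stood at -0.38 and the exporter ABCC3 at -0.11. Among transcription factors and other regulators of transferase genes (15 of 20 measured), the median was 0.08, with 2 genes separate above and 2 below, beside 11.5% and 10.0% of all genes. NR3C1, the glucocorticoid receptor, stood at 0.29 and KEAP1, the inhibitor of NRF2, at 0.17, while CEBPB stood at -0.58 and PPARA at -0.31. CEBPB was -0.033 without scramble replicate 2 and -1.12 without scramble replicate 1. The groups overlapped for each of these 4 regulators, and the median of the list was -0.06 without shACOT12 replicate 1 and -0.16 without shACOT12 replicate 2. The HNF1 factors were not analysed here.

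**Figure D5:**
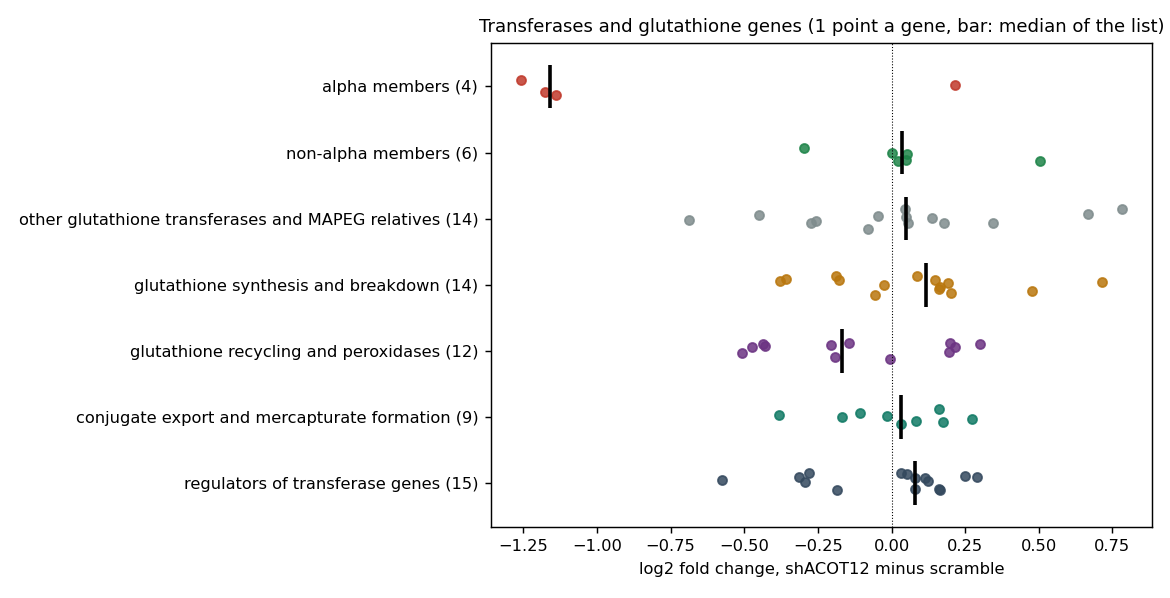
Log2 fold change, shACOT12 minus scramble, of each gene (points) in the alpha members, the non-alpha members and the 5 lists of related genes, with the number of genes in brackets and the median of each list as a bar. The 5 lists spread on both sides of 0, from -0.69 (GSTM5) to 0.78 (GSTO2); the 3 low alpha genes were chosen for their low values.

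Likeness to GSTA1 over the 4 arrays was described by the root mean square difference between log2 values, each gene taken relative to its own mean. GSTA2 differed from GSTA1 by 0.086 and GSTA3 by 0.302, while the other 7 members differed by 0.481 (GSTK1) to 0.837 (GSTM3). GSTA1, GSTA2 and GSTA3 were all chosen by low values on these arrays. Their nearness was thus largely set by the choice and is no test. Among 9535 genes that were no members and reached the median, 1 was nearer to GSTA1 than GSTA2 was, and 71 were nearer than GSTA3. The 5 nearest were PRTG, a cell surface protein of the immunoglobulin superfamily, at 0.0447, TFR2, the second transferrin receptor of liver, at 0.113, KRABD1 at 0.126, ZG16 at 0.141 and SERPINC1, which encodes antithrombin, at 0.141. PRTG averaged 8.78 ± 0.05 in shACOT12 cells and 9.85 ± 0.13 in scramble cells (log2, n = 2 each), a log2 fold change of -1.07. The log2 fold changes of TFR2, KRABD1, ZG16 and SERPINC1 were -0.93, -1.19, -0.89 and -0.99. These values and the nearness to GSTA1 rest on the brightest probe of each gene. When all probes of a gene were averaged, PRTG fell to a smaller difference of -0.56 and SERPINC1 to -0.52. TFR2, KRABD1 and ZG16 kept their values. These genes were chosen by a low value in the same comparison, so their differences are no test.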

How the data were processed

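Total RNA of 4 Huh7 samples was amplified to aminoallyl RNA, labelled with Cy5 and measured on single-colour arrays, per the labels. The authors deposited linear intensity values for 28264 probes; scanner, background correction and normalization are not given in the sources used here. Of these values 301 were below 0. Columns were matched to samples by name and 0 per-sample columns were left over. Intensities under 1 were set to 1, converted to log2 and quantile normalized, since the array medians differed by 0.462 (log2). For each gene the probe with the highest mean over the arrays was used, named through the platform's annotation: 25893 probes had 1 symbol, 0 had several and 2371 had none.

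The comparison used limma (version 3.58.1, R version 4.3.3; lmFit, eBayes, 2 residual degrees of freedom, two-sided) over all 19090 genes, with Benjamini-Hochberg adjustment and a threshold of 0.05. The fit was also run on simulated data with independent arrays, and no result given here rests on that run. The precision is limited by the number of arrays, and no detection flags were used.

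The members, lists and tests were chosen with earlier results of these data known, and the motifs with the promoter sequences in view. All members and all measured genes of the list of other transferases were named. Of every other list, the 2 genes with the largest fold change in each direction among those at or above the median were named. Any gene at an unadjusted limma p under 0.05 was named too. The marker lists were instead given as counts and sums, with some genes named. AFP and ALB were described, with the lowest and the highest log2 fold change of the hepatocyte or hepatoma markers. Promoter sequences are from RefSeq (GRCh38.p14), where all 10 members were matched. Alternatives were other scalings, priors, probe rules, filters and floors, a replicate block and leaving out each array.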

Additional observations from a re-analysis of the deposited data

How the results depend on the processing

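None of the 6 non-alpha members and none of the 5 lists had a gene past the adjusted threshold in limma under any of the 13 alternatives run. Those for the lists were added after the data were seen. GSTA1, GSTA2 and GSTA3 kept their direction in all 13, which is no support, since they were chosen by this direction. Their groups were separate, so leaving out 1 array could not turn their sign. Over all genes the count past the threshold was 1 and became 0 with the deposited intensities unscaled, 75th percentile scaling, cyclic loess or a floor at the 20th percentile, 3 with an intensity trend, 25 with the replicate block and 0 to 4 without 1 array. Same-numbered arrays deviated together (r = 0.28 across genes), but 2 numbers do not establish a pairing, and the block changed no call of the 6 non-alpha members. Among the 46 named genes, 35 values changed sign and 560 did not. MGST2 was 0.031 with the deposited intensities unscaled and 0.061 with 75th percentile scaling, GSTP1 was -0.048 and MGST1 -0.017 with cyclic loess, and GSTP1 was -0.12 with the mean of its probes. Leaving out 1 array turned the sign of the following, with their lowest and highest values: GSTA4 -0.032 to 0.47, GSTM4 -0.52 to 0.63, GSTP1 -0.15 to 0.15, GSTO1 -0.048 to 0.14, GSTK1 -0.68 to 0.088, MGST1 -0.051 to 0.092, GSTA5 -0.63 to 0.11, GSTM2 -0.32 to 0.59, GSTM5 -1.62 to 0.24, GSTT1 -0.33 to 0.43, GSTZ1 -0.37 to 0.47, MGST2 -0.18 to 0.086, MGST3 -0.95 to 0.056, HPGDS -0.57 to 0.41, LTC4S -0.20 to 0.29, ALOX5AP -0.83 to 0.28, PTGES -0.10 to 0.46, ABCC3 -0.28 to 0.065, ACY3 -0.18 to 0.72, GLRX2 -0.24 to 0.64, KEAP1 -0.059 to 0.39, KYAT1 -1.12 to 0.35, NR3C1 -0.11 to 0.69, PPARA -0.76 to 0.13 and ACOT12 -0.80 to 0.0039. The cause was not tested. Signal limits the 7 of 14 further transferases that lay below the median gene.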
